A study of Mus musculus with 12 samples.

Results

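The mRNAs described here encode the nuclear-encoded subunits of the 5 complexes of oxidative phosphorylation. They were taken by symbol from the 55376 genes of the count table, as names that begin with Ndufa, Ndufb, Ndufc, Ndufs or Ndufv and a digit, Sdha to Sdhd, or names that begin with Uqcr, Cox4 to Cox8 or Atp5. Of 96 names that matched, 8 that hold "-ps" were left out, which left 88 members. Complex I (NADH dehydrogenase) had 40 members, complex II (succinate dehydrogenase) had 4, complex III (the cytochrome bc1 complex) had 8, complex IV (cytochrome c oxidase) had 19 and complex V (ATP synthase) had 17. One of the names left out, Ndufb1-ps, carried 21232 counts over all libraries, and the other names left out carried at most 92 counts each.

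The libraries were made from 4T1 cells, an established line from a mouse mammary carcinoma. Mock cells were stably transfected with the empty vector, and METTL7A1 cells with a full-length Mettl7a1 cDNA driven by a cytomegalovirus promoter. Both lines were kept under geneticin, and whether each was a clone or a pool of transfectants is not stated in the sources used here. For 5 min before lysis both received cycloheximide at 0.1 mg/ml, which holds ribosomes on the mRNA, and lysates were spread on a sucrose gradient. Gradient fractions 3 to 7, with free subunits and monosomes, were joined as the sub-polysomal pool, and the polysomal pool took fractions 8 to 11, with light and heavy polysomes. Each of the 4 groups of line and pool had 3 libraries, which carry the letters A, B and C for mock and D, E and F for METTL7A1. The study describes its gradient profiles as coming from independent fractionations of biological replicates. The labels do not tie the letter of a library to a separate culture, so that the p-values measure the spread between these libraries, which may be technical.

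In the respiratory chain, complexes I and II pass electrons from NADH and succinate to ubiquinone, complex III passes them to cytochrome c, and complex IV passes them to oxygen. Complexes I, III and IV pump protons across the inner mitochondrial membrane, and complex V uses the return of these protons to make ATP. Apart from complex II, each complex joins a few subunits made inside mitochondria to subunits whose mRNAs are translated in the cytosol, many of which are short proteins. A gradient separates mRNAs by the number of ribosomes they carry, and a short coding sequence has room for fewer ribosomes.

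Library totals lay between 1817520 and 6966156 counts, and the lowest was mock sub-polysomal library A. Mettl7a1 itself was at 1.26 to 3.28 CPM (a count scaled by the size of its library) in the 6 mock libraries and at 236 to 395 CPM in the 6 METTL7A1 libraries, as labelled. The 6 epithelial markers (Epcam, Cdh1, Krt7, Krt8, Krt18 and Krt19) were found in every library, with sums of 2670 to 2800, 3440 to 4130, 2820 to 3090 and 5210 to 6110 CPM in mock sub-polysomal, mock polysomal, METTL7A1 sub-polysomal and METTL7A1 polysomal libraries. Fibroblast, leukocyte and endothelial markers each summed to at most 22.5 CPM in any library, with Col1a2, Pdgfrb and Cd3e at 0 counts in all 12 and Ptprc at 0 or 1. Pdgfra, with 4 to 43 counts, and Cd68, with 20 to 167 counts, were the markers of these lists that passed the filter. Cd68, a lysosomal protein best known from macrophages, was higher in METTL7A1 than in mock cells, by a log2 change of 1.56 in the polysomal pool (adjusted p 0.00011 by edgeR) and 0.80 in the sub-polysomal pool (adjusted p 0.0329). The part of these differences in the results below was not tested. In such bulk pools, fewer cells with an mRNA and less of it per cell cannot be told apart.

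Of the 88 members, 77 passed the filter of at least 1 CPM in at least 3 libraries and were tested: 36 in complex I, 4 in II, 8 in III, 12 in IV and 17 in V. The 11 others had at most 6 counts in a library. Among them were the tissue-restricted isoforms of complex IV, namely Cox4i2, Cox6a2, Cox6b2, Cox7a1, Cox7b2, Cox8b and Cox8c, and Ndufa4l2. Cox6b2, Cox8b and Ndufa4l2 had 0 counts in all 12 libraries. At this depth 3 counts corresponded to 0.431 to 1.65 CPM by library totals, without TMM factors. That limit covers counting error only, and lower levels of these isoforms were not detectable. Ndufs6b, Ndufb4c and Ndufa11b, which also failed the filter, and Cox6c2, which passed it at a mean of 1.43 CPM, are processed pseudogenes in the annotation. Each complex IV family with such isoforms was thus read from the ubiquitous forms Cox4i1, Cox6a1, Cox6b1, Cox7a2, Cox7a2l, Cox7b and Cox8a. Atp5l, an abundant membrane subunit of ATP synthase in most cells, was at a mean of 2.65 CPM. Near-identical copies of it exist in the genome and the handling of reads that match several genes is not stated, so its level is uncertain.

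All members together took 2.91% to 3.22% of the counts of the mock sub-polysomal libraries and 1.85% to 2.26% of those of the mock polysomal libraries. In METTL7A1 cells they took 3.12% to 3.46% of the sub-polysomal and 2.03% to 2.16% of the polysomal counts. The pools did not overlap in either line. In CPM with TMM factors, the members of complex IV summed to 9070 ± 1360 CPM (SD, n = 3) in the mock sub-polysomal and 3330 ± 728 CPM in the mock polysomal pool. Those of complex II, the only complex with no mitochondrially encoded subunit, summed to 1050 ± 78.5 and 914 ± 62.8 CPM. Per kilobase of annotated exon, mean levels of the tested members over the 12 libraries ran from 2350 CPM per kb for Cox4i1, a subunit of complex IV, to 4.88 CPM per kb for Atp5l. Ndufa4 at 1470, Cox6a1 at 1410, Atp5g3 at 1350 and Ndufb9 at 1320 CPM per kb came next after Cox4i1. The ranges of these 4 overlapped in the mock sub-polysomal libraries. In the mock polysomal libraries Cox6a1, at 208 to 462 CPM per kb, lay below Ndufa4 at 538 to 881 and Ndufb9 at 496 to 837. The exon length joins all annotated isoforms, so that genes with long alternative exons have low levels per kb.

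The first comparison asked how each mRNA was divided between the pools, relative to the other genes of the same libraries. The share of its molecules in each pool cannot be read from such ratios. In mock cells 57 of the 77 tested members were lower in the polysomal pool at an adjusted p below 0.05 and 0 were higher, while of all 12224 genes tested 23.7% were lower and 23.3% were higher. Limma-voom and DESeq2 each called 1 member higher, and 3 members were higher at an unadjusted p below 0.05 in the edgeR fit. The median log2 ratio of polysomal over sub-polysomal was -1.02 for the members and 0.05 for all genes tested. At a stricter call, an adjusted p below 0.01 and a log2 change beyond 1.5, 24 members were lower, against 6.86% of all genes. In METTL7A1 cells 62 members were lower and 7 higher, with a median of -1.34 beside 0.06 for all genes, of which 29.3% were lower and 30.0% higher. The stricter call was met by 33 members as lower ones, beside 10.3% of all genes. Lower calls in both lines were shared by 56 members, and stricter ones by 24. The 2 lines were fitted together and share one estimate of the spread.

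**Figure D1:**
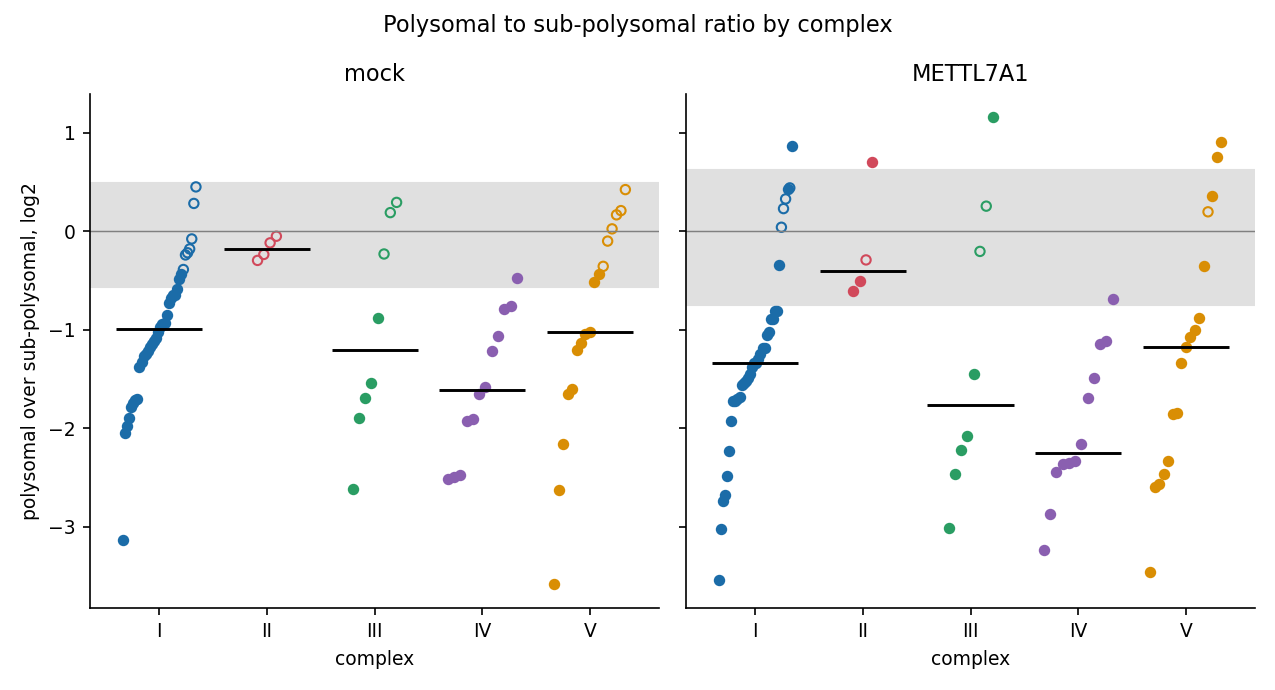
Log2 ratio of polysomal over sub-polysomal level (vertical axis) of each tested member, by complex, in mock (left) and METTL7A1 cells (right). Each point is 1 gene, filled where the adjusted p of edgeR's quasi-likelihood test was below 0.05, black lines are medians and the grey band holds the middle 50% of all 12224 genes tested; complex IV lies wholly below 0 and complex II near it.

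The complexes differed in their medians. Complex IV had the lowest ones, -1.61 in mock and -2.25 in METTL7A1 cells, and all 12 of its tested members were lower in both lines. Complex III followed with -1.21 and -1.76, complex V with -1.02 and -1.18, and complex I with -0.99 and -1.34. Complex II had medians of -0.18 and -0.40, with 0 of its 4 members past the test in mock cells, and its medians turned to 0.22 and 0.07 when only library totals scaled the counts. That scaling moved the median of all genes to 0.45 in mock and 0.53 in METTL7A1 cells. Relative to all genes, the median of the 77 members lay between -1.07 and -1.09 in mock and between -1.40 and -1.41 in METTL7A1 cells under all 4 scalings. The difference between complexes was not tested.

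With 1 letter left out at a time, 49 of the 57 lower calls in mock cells passed in all 6 fits. Ndufs5, Ndufs7, Ndufs8, Ndufa11, Cox4i1, Cox5a, Atp5d and Atp5o did not pass without letter B, and Ndufs5 passed only without C. The ratio of Atp5d was -0.25 at its nearest to 0 in these fits, with adjusted p up to 0.384. In METTL7A1 cells 59 of the 62 lower and 4 of the 7 higher calls passed in all 6. The lower calls of Atp5h and Ndufv2 were lost without D, E or F and that of Sdhb without D or E. The higher call of Sdha was lost without D and that of Ndufs3 without D or F, so that 4 members were higher without D. Atp5c1 was called higher in 1 of the 6 fits and in 8 of 18 alternatives.

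Atp5md, a small membrane protein of the ATP synthase, had the lowest ratio in mock cells. Its level was 804, 1182 and 604 CPM in mock sub-polysomal libraries A to C and 29.2, 87.4 and 98.5 CPM in the polysomal ones. In METTL7A1 libraries D to F it was at 753, 708 and 890 CPM in the sub-polysomal and 57.0, 74.3 and 82.9 CPM in the polysomal pool. The pools lay far apart in both lines, with log2 ratios of -3.59 ± 0.34 (SE) and -3.46 ± 0.34 and adjusted p of 4.39e-07 and 1.72e-07 by edgeR's quasi-likelihood test. Ndufc1, a short membrane-arm subunit of complex I, was at 274, 353 and 203 against 15, 37.1 and 41.8 CPM in mock cells. In METTL7A1 cells it was at 209, 240 and 280 against 15.3, 28.0 and 19.0 CPM. Its ratios of -3.14 ± 0.30 and -3.54 ± 0.31 were thus of the same order as those of Atp5md.

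In complex III, Uqcr10, one of its smallest subunits, had log2 ratios of -2.62 and -3.02. It was at 402, 699 and 585 CPM in the mock sub-polysomal and 45.1, 105 and 126 CPM in the mock polysomal libraries. Uqcr11 (-1.90 and -2.46), Uqcrh (-1.69 and -2.22), Uqcrq (-1.55 and -2.08) and Uqcrb (-0.88 and -1.45), the other small subunits, were also lower in the polysomal pool of both lines. The larger subunits behaved otherwise. Uqcrc1, a core subunit, had log2 ratios of -0.23 in mock and -0.21 in METTL7A1 cells, with adjusted p of 0.378 and 0.41. Uqcrfs1, the Rieske iron-sulfur protein, had ratios of 0.29 and 0.25, with adjusted p of 0.0879 and 0.116. Uqcrc2, the other core subunit, was at 160, 140 and 178 against 195, 164 and 186 CPM in mock cells, a log2 ratio of 0.19 ± 0.15. In METTL7A1 cells it was at 97.2, 100 and 73.6 CPM in the sub-polysomal and 218, 203 and 184 CPM in the polysomal pool. Its ratio there was 1.16 ± 0.15 (adjusted p 3.47e-06), the highest of all members, and the pools did not overlap.

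In complex IV, Cox6a1 was at 970, 1432 and 1059 CPM in the mock sub-polysomal and 119, 233 and 264 CPM in the mock polysomal libraries. In METTL7A1 cells the values were 1767, 1818 and 1477 against 156, 182 and 200 CPM. With log2 ratios of -2.49 ± 0.24 and -3.23 ± 0.25 it had the lowest ratio of the complex in METTL7A1 cells and, among its members above 5 CPM, in mock cells too. Cox7c (-2.48 and -2.44), Cox8a (-1.93 and -2.35), Cox6c (-1.91 and -2.36), Cox7a2 (-1.65 and -2.16) and Cox6b1 (-1.58 and -2.33) met the stricter call in both lines. Cox5b (-1.22 and -1.70) met it in METTL7A1 cells only, and Cox7b had ratios of -1.06 and -1.49. Smaller ratios were found for the larger subunits Cox4i1 (-0.76 and -1.15) and Cox5a (-0.47 and -0.69). Cox7a2l, which joins complexes III and IV in supercomplexes, had ratios of -0.79 and -1.11.

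In complex I, the 7 catalytic core subunits (among them Ndufs1, Ndufs3, Ndufs7, Ndufs8, Ndufv1 and Ndufv2), which hold the flavin and the iron-sulfur clusters, were set beside the 29 other tested subunits. The ratios of the core ran from -0.65 to 0.45 in mock and from -1.30 to 0.87 in METTL7A1 cells. The medians were -0.18 and 0.23 for the core and -1.14 and -1.49 for the others. The core subunits are also longer, with a median of 263 residues against 131, and the part of length was not tested. Of the core, 2 were lower and 0 higher in mock cells, and 3 were lower and 2 higher in METTL7A1 cells. Of the others, 27 were lower and 0 higher in each line. Ndufs1, the largest core subunit, was at 75.1, 57.3 and 57.8 against 92.0, 74.5 and 90.2 CPM in mock cells, with a log2 ratio of 0.45 ± 0.18 and an adjusted p of 0.0526. In METTL7A1 cells it was at 71.3, 55.1 and 42.1 against 122, 99.0 and 84.2 CPM, with a ratio of 0.87 ± 0.18 and an adjusted p of 0.000541. Ndufs3 was the other core subunit called higher in METTL7A1 cells, with a ratio of 0.43 there and 0.28 in mock cells. Ndufs7, which carries the last iron-sulfur cluster before ubiquinone, had ratios of -0.65 and -1.30, and Ndufs8 had -0.48 and -0.89. The values of Ndufv1 were -0.08 and 0.44 and those of Ndufv2 were -0.22 and -0.34, of which only that of Ndufv2 in METTL7A1 cells passed the test (adjusted p 0.0389).

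Beyond the core, the lowest ratios of complex I in mock cells after that of Ndufc1 were those of Ndufa2 (-2.04 and -2.74), Ndufb4 (-1.98 and -3.02), Ndufa7 (-1.90 and -2.68), Ndufa1 (-1.78 and -1.52), Ndufa3 (-1.75 and -2.49), Ndufb3 (-1.71 and -1.71) and Ndufa6 (-1.71 and -2.23). These are accessory subunits, and all met the stricter call in both lines. Ndufs6 (-1.38 and -1.93), Ndufb9 (-1.33 and -1.73), Ndufa4 (-1.21 and -1.68), Ndufb11 (-1.08 and -1.73), Ndufa13 (-1.02 and -1.56) and Ndufa11 (-0.73 and -1.54) met it in METTL7A1 cells only, and whether these ratios differed between the lines is given below. Ndufa4, which was named as a complex I subunit, is now placed in complex IV. Ndufa9 and Ndufa10, the longest accessory subunits after Ndufv3, had ratios of -0.39 and 0.33 and of -0.59 and 0.04.

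In complex II, Sdha, the flavoprotein, was at 183, 150 and 167 CPM in the mock sub-polysomal and 179, 145 and 158 CPM in the mock polysomal libraries, which overlapped. In METTL7A1 cells it was at 84.6, 94.0 and 71.5 against 175, 133 and 99.4 CPM, with a log2 ratio of 0.70 ± 0.18 (adjusted p 0.00234). The iron-sulfur subunit Sdhb and the membrane anchors Sdhc and Sdhd had ratios of -0.30, -0.12 and -0.24 in mock cells. In METTL7A1 cells Sdhb (-0.51) and Sdhc (-0.61) were lower in the polysomal pool, and Sdhd was at -0.29 with an adjusted p of 0.0774. Under scaling by library totals all 4 had ratios above 0 in mock cells.

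In complex V, 11 of the 17 members were lower in mock cells and 13 in METTL7A1 cells. Atp5b, the beta subunit that carries the catalytic sites, was at 1625, 1571 and 1649 CPM in the mock sub-polysomal and 2398, 1869 and 2228 CPM in the mock polysomal libraries. In METTL7A1 cells it was at 1988, 1795 and 1396 against 3462, 3428 and 2821 CPM. Its log2 ratios were 0.42 ± 0.17 (adjusted p 0.0538) and 0.91 ± 0.18 (adjusted p 0.00023). The alpha subunit Atp5a1 had ratios of 0.21 and 0.76 and the gamma subunit Atp5c1 had 0.02 and 0.36, and both passed the test in METTL7A1 cells only. Atp5f1, subunit b of the stalk, had ratios of 0.17 and 0.20, with adjusted p of 0.327 and 0.219. The short F1 subunits Atp5d (delta, -0.51 and -1.34) and Atp5e (epsilon, -2.17 and -2.57) were lower in the polysomal pool of both lines. The 3 genes of the c-ring, which encode one mature protein behind different import sequences, were not alike. Atp5g1 had ratios of -1.13 and -1.85, Atp5g3 of -1.05 and -1.08 and Atp5g2 of -0.36 (adjusted p 0.0718) and -1.18. Of the membrane subunits, Atp5j2 (-1.66 and -2.60) and Atp5k (-1.60 and -2.34) met the stricter call in both lines, and Atp5mpl (-1.20 and -1.86) met it in METTL7A1 cells.

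**Figure D2:**
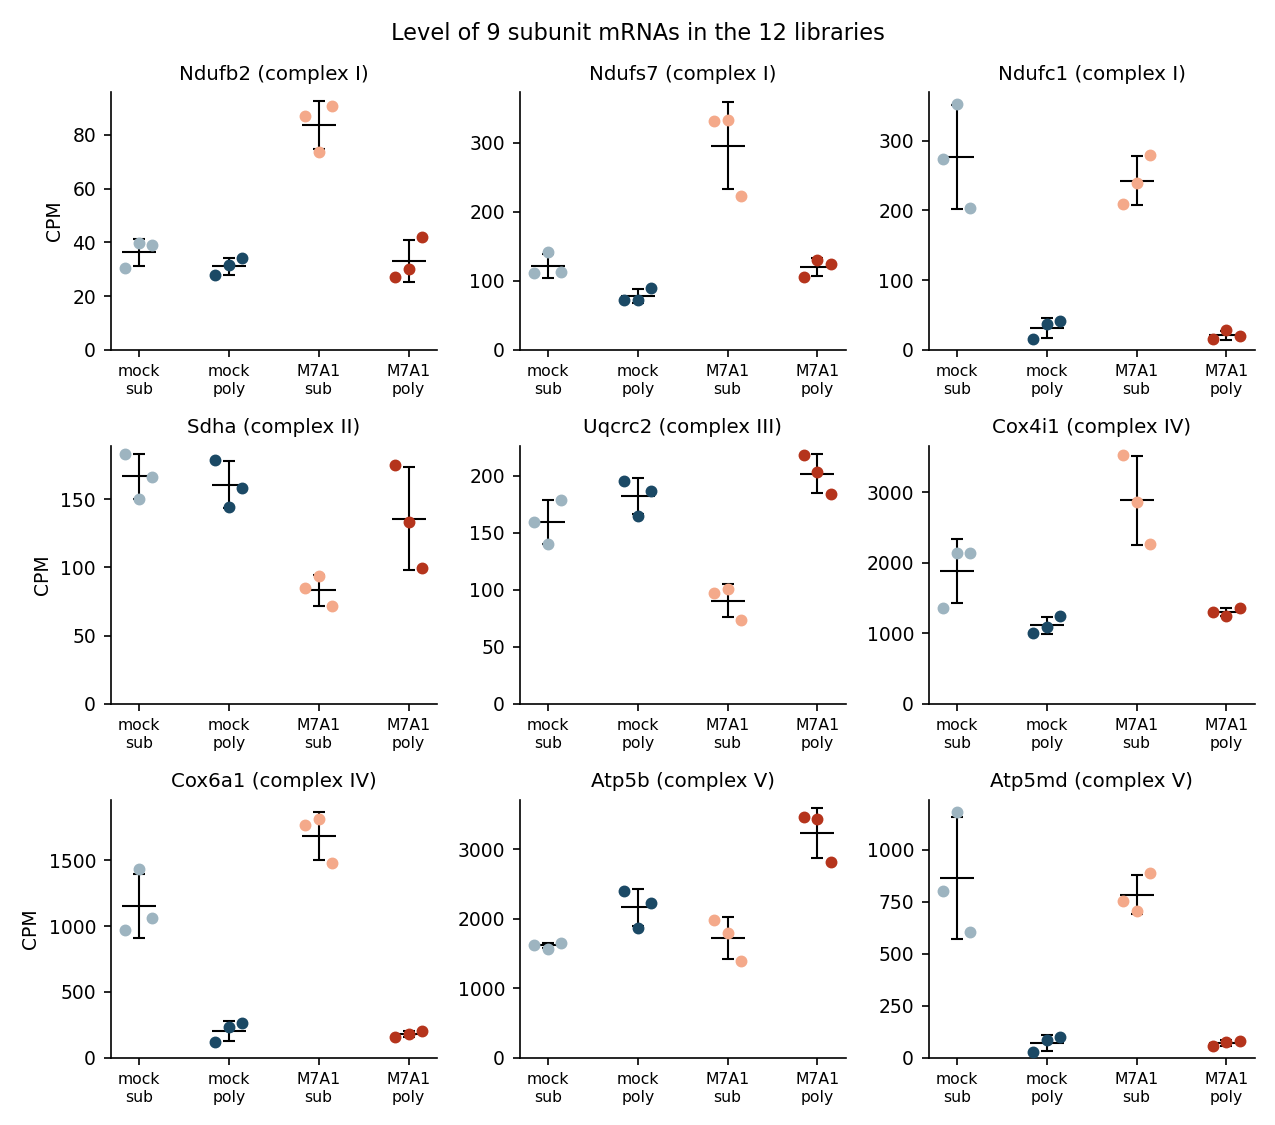
Level in CPM (vertical axes, from 0) of 9 members in the 12 libraries, grouped as sub-polysomal (sub) and polysomal (poly) pools of mock and METTL7A1 (M7A1) cells. Points are libraries and bars are the mean ± SD of 3; Ndufc1, Cox6a1 and Atp5md are at no more than 264 CPM in the polysomal pool, while Atp5b is at 1869 CPM or more there, and Sdha and Uqcrc2 are lower in the METTL7A1 sub-polysomal pool than in the other pools' means.

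The members are short: among the 76 with an annotated coding sequence the median protein was 139 residues, from 52 for Atp5e to 727 for Ndufs1, and 56 (73.7%) had at most 200 residues. Among the 10795 other tested coding genes the median was 460 residues, and 13.0% had at most 200. Across the 76 members the log2 ratio followed protein length with a Spearman correlation of 0.81 in mock and 0.83 in METTL7A1 cells. Across the other coding genes it was 0.54 and 0.53. These are descriptions over genes measured in the same libraries, and genes are not independent replicates. The annotated 5′ UTR length (0.14 and 0.17), the 3′ UTR length (0.06 and 0.07) and the GC content of the transcript (-0.03 and -0.08) showed little relation to the ratio of the members.

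The members were also set beside other genes of their length class. Of 20 members with up to 100 residues all were lower in the polysomal pool of both lines, with medians of -1.77 and -2.36, against -1.58 and -1.92 for 209 other genes of that class. For 36 members with more than 100 and up to 200 residues the medians were -0.99 and -1.34, against -0.73 and -0.92 for 1193 other genes. For 9 members with more than 200 and up to 300 residues they were -0.22 and -0.34, against -0.16 and -0.24 for 1490 other genes. The 9 members over 400 residues had a median of -0.05 in mock cells, below the 0.35 of 6278 other genes, and of 0.71 in METTL7A1 cells, above the 0.43 of those genes. Ndufv3, with 468 residues in the annotated form used, was the one long member called lower, with ratios of -1.27 and -1.45.

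**Figure D3:**
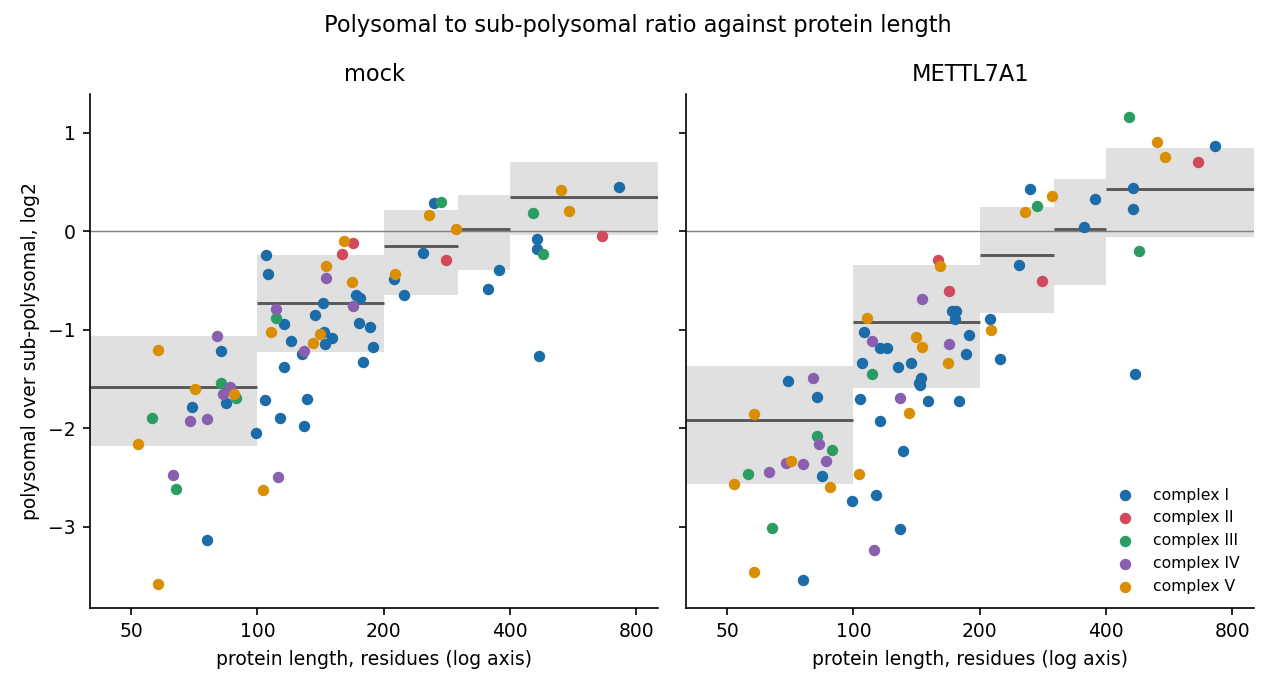
Log2 ratio of polysomal over sub-polysomal level (vertical axis) against protein length in residues (horizontal log axis) for the 76 tested members with a coding sequence, in mock (left) and METTL7A1 cells (right). Points are members, coloured by complex, and dark lines and grey bands are the median and middle 50% of other coding genes in 5 length classes; members rise with length as the other genes do.

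Offsets that remove a trend with length across the tested genes were also fitted. The part of length in the ratios was not tested. With offsets on exon length, 35 members were lower and 12 higher in mock cells, with a median of -0.27, and in METTL7A1 cells 39 were lower and 17 higher, with a median of -0.50. With offsets on coding length, an alternative chosen after seeing the data, the medians were -0.13 and -0.16, with 18 lower and 14 higher in mock and 29 lower and 17 higher in METTL7A1 cells. Atp5md, Ndufc1, Uqcr10 and Cox6a1 remained below 0 under both.

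The start codons of the members also had a shared feature. The 8 letters ATGGCGGC, a start codon followed by GCGGC as in the short-leader element known as TISU, were searched on the transcript strand at the annotated start codon only. They stood there in 13 of the 76 members (17.1%) and in 430 of the 10795 other coding genes (3.98%). Of these 13, 11 are subunits of complex I, 1 of complex II and 1 of complex III, and none was found in complexes IV and V. A match is a description of letters, and was not tested for an effect on translation. The sequences below show 12 bases before the start codon, the 8 letters in capitals and the 7 bases after them, on the transcript strand of GENCODE M21, build GRCm38. They were chosen to run from a core subunit above 0 to an accessory subunit well below it. The lowest ratio of the 13, -2.04 in mock cells, belongs to a member that is not printed.
Ndufs3: acactaaggaacATGGCGGCggctgca
Ndufa9: ttgtgggagaagATGGCGGCcgccgtc
Uqcrc1: ggaagttagaagATGGCGGCgtccgca
Sdhb: tcaggagccaaaATGGCGGCgacggtc
Ndufs7: gccgaggccaagATGGCGGCgctggcg
Ndufa6: ttcctcggcaagATGGCGGCcgcggcc
The start codons lie at chr2:90904645-90904647 (Ndufs3, minus strand), chr6:126849110-126849112 (Ndufa9, minus), chr9:108936719-108936721 (Uqcrc1, plus), chr4:140961405-140961407 (Sdhb, plus), chr10:80249476-80249478 (Ndufs7, plus) and chr15:82354226-82354228 (Ndufa6, minus).

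Annotated leaders before these start codons ranged from 13 bases for Ndufa9 and 24 for Ndufs7 to 202 for Sdhb, so the letters were not bound to short leaders in this annotation. Members with the letters had a median log2 ratio of -0.93 in mock and -1.06 in METTL7A1 cells at a median of 189 residues, and the 63 without them had -1.05 and -1.38 at a median of 129 residues. Among the printed sequences the ratio in mock cells ran from 0.28 for Ndufs3 to -1.71 for Ndufa6, so members with the same letters at the start codon were divided between the pools very differently. A transcript start of C followed by 4 pyrimidines, as in mRNAs with a terminal oligopyrimidine tract, was annotated for 7 members (9.21%) and 2.20% of other genes.

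The next comparison asked whether the level of the members differed between METTL7A1 and mock cells within a pool. In the polysomal pool 4 members were higher and 3 lower in METTL7A1 cells at an adjusted p below 0.05, beside 9.69% and 8.28% of all genes. In the sub-polysomal pool 18 (23.4%) were higher and 4 (5.19%) lower, beside 16.8% and 14.5% of all genes. Most members are short, so they were also set beside other genes of their length. With up to 100 residues 3 of 20 members were higher, beside 40 of 209 other genes. With more than 100 and up to 200 residues 13 of 36 members were higher, beside 312 of 1193 other genes. In these classes 0 members were lower, beside 13 and 112 other genes. The stricter call was met by 0 members in either pool by edgeR, beside 2.13% of all genes in the polysomal and 2.76% in the sub-polysomal pool. Median log2 changes were -0.06 in the polysomal and 0.23 in the sub-polysomal pool for the members, and -0.01 and -0.0015 for all genes. In the polysomal pool 12 of the 77 members had an unadjusted p below 0.05 by edgeR, beside 3819 of all 12224 genes. In the sub-polysomal pool 28 members did, beside 5166 of all genes. The share of members was below that of all genes in both pools.

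In the sub-polysomal pool, 13 of the 18 higher members belonged to complex I. Ndufs7 changed most. It was at 111, 142 and 112 CPM in mock and at 331, 333 and 223 CPM in METTL7A1 sub-polysomal libraries, a log2 change of 1.28 ± 0.17 (2.43-fold, adjusted p 3.1e-05), and every METTL7A1 library lay above every mock library. Ndufb2, an accessory membrane subunit, was at 30.5, 39.7 and 38.9 in mock and 86.9, 73.7 and 90.6 CPM in METTL7A1 libraries, a change of 1.18 ± 0.17. The groups of Ndufb2 were also separate. Ndufa2 (0.98), Ndufb11 (0.92), Ndufa12 (0.86) and Ndufa13 (0.85), which take part in the peripheral arm or membrane arm, rose as well. Ndufa7 (0.79), Ndufc2 (0.72), Ndufb4 (0.70), Ndufa11 (0.66), Ndufa4 (0.60), Ndufa6 (0.60) and Ndufs8 (0.49) completed the complex I group.

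Outside complex I, Atp5d and Atp5g2 rose in the sub-polysomal pool. Atp5d was at 310, 508 and 402 CPM in mock and 942, 889 and 661 CPM in METTL7A1 libraries, a log2 change of 1.03 ± 0.19 (2.04-fold, adjusted p 0.000466). Atp5g2 was at 38.4, 51.9 and 41.3 in mock and 90.9, 79.9 and 62.9 CPM in METTL7A1 libraries, a change of 0.82 ± 0.16. Both had groups that did not overlap. For these groups, and those of Ndufs7 and Ndufb2, the share of all genes so separate is not given here. Cox4i1 rose by 0.62, Uqcrq by 0.55 and Sdhc by 0.39, with smaller margins. The members that fell were Sdha, Uqcrc2, Ndufa9 and Ndufa10. From the values given above, Sdha changed by -1.00 ± 0.18 and Uqcrc2 by -0.82 ± 0.15, and both were among the 7 members higher in the polysomal pool of METTL7A1 cells. Ndufa9 was at 216, 189 and 202 against 166, 158 and 102 CPM, a change of -0.51 ± 0.18, and Ndufa10 changed by -0.42 ± 0.14.

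**Figure D4:**
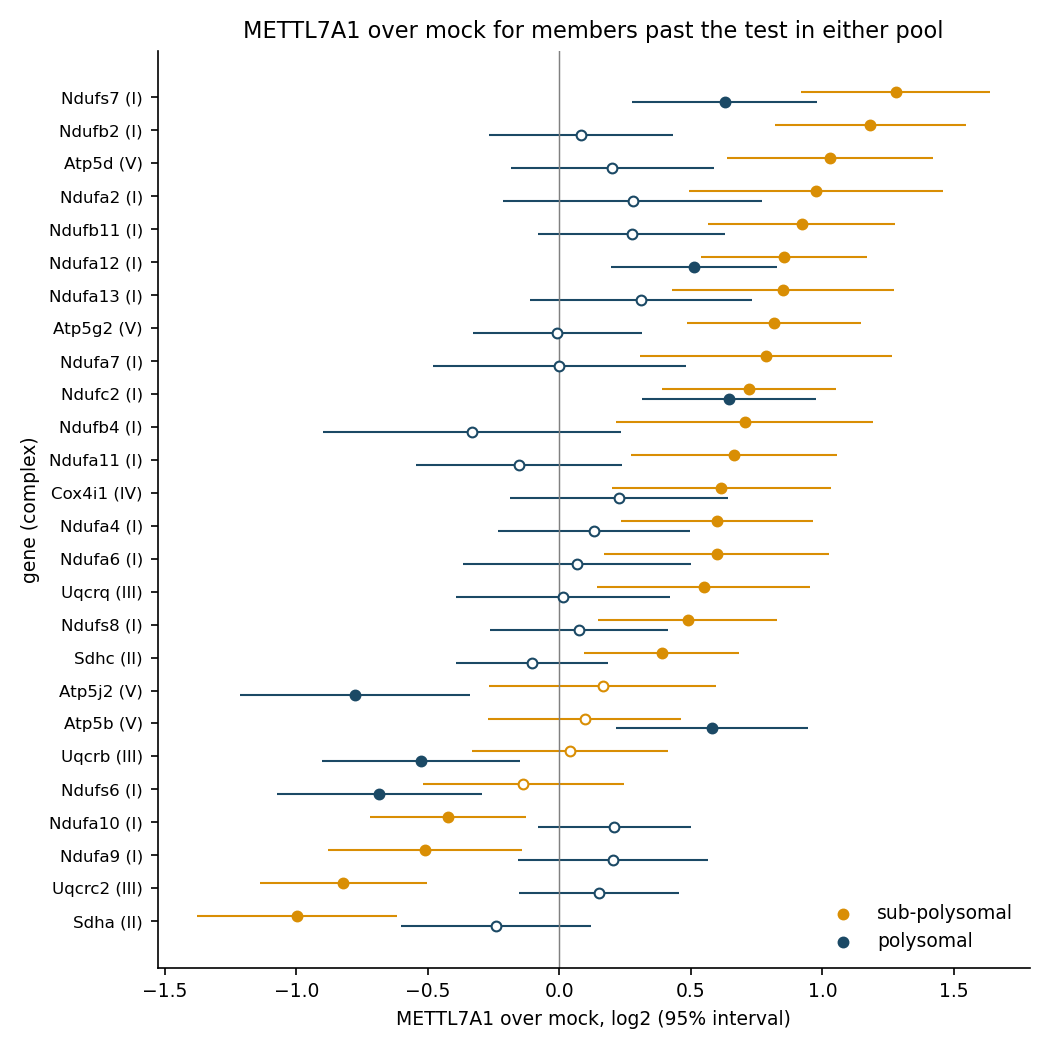
Log2 change of METTL7A1 over mock (horizontal axis) with its 95% interval for the members past the test in the sub-polysomal (orange) or polysomal pool (blue). Points are filled where the adjusted p of edgeR's quasi-likelihood test was below 0.05; Ndufs7, Ndufc2 and Ndufa12 are filled in both pools, and Sdha and Uqcrc2 lie furthest to the left in the sub-polysomal pool.

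These sub-polysomal calls varied in how they held when a letter was left out, with both of its libraries. Of the 18 higher calls 9 passed in all 6 such fits, namely Ndufs7, Ndufb2, Ndufa2, Ndufb11, Ndufa12, Ndufa13, Ndufc2, Atp5d and Atp5g2, and of the 4 lower calls Sdha and Uqcrc2 did, which were the lower calls left without E or without F. The median of 0.23 was 0.13 without A and 0.15 without E. The count of higher calls ranged from 9 without letter E and 11 without letter D to 21. Actb scaling moved the median of all genes to 0.26 in this pool and gave 34 higher calls among the members. With exon-length offsets the median of the members was 0.0042, and across genes the change followed GC content, with a Spearman correlation of 0.43 in the members and 0.44 in other genes. With GC offsets 16 members were called higher and 6 lower. Ndufa13, Ndufa6, Ndufa7, Ndufa11, Ndufs8 and Cox4i1 were then no longer called higher, and Ndufa9 no longer lower.

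In the polysomal pool, Ndufc2 (0.65 ± 0.16), Ndufs7 (0.63 ± 0.17), Atp5b (0.58 ± 0.17) and Ndufa12 (0.51 ± 0.15) rose. Ndufc2, a membrane-arm subunit, was at 104, 123 and 103 CPM in mock and 152, 158 and 207 CPM in METTL7A1 polysomal libraries, with an adjusted p of 0.0079. For Ndufs7 the values were 71.4, 71.6 and 89.5 against 105, 131 and 124 CPM. Ndufc2, Ndufs7 and Ndufa12 were the 3 members called in both pools, each in the same direction in both. Atp5j2 (-0.78 ± 0.21), Ndufs6 (-0.69 ± 0.19) and Uqcrb (-0.53 ± 0.18) fell. Atp5j2, subunit f of the membrane part, was at 222, 389 and 466 CPM in mock and 197, 215 and 216 CPM in METTL7A1 polysomal libraries. Ndufs6 was at 70.5, 116 and 125 in mock and 61.8, 66.1 and 65.3 CPM in METTL7A1 libraries. For both the METTL7A1 libraries lay below the mock ones, and mock library A was the nearest to them.

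None of these 7 polysomal calls passed in all 6 fits that leave out a letter. Without mock letter A the lower calls rose from 3 to 19, and without B, C, D or E they were 0, with 1 without F. The higher calls were 2 without B, 2 without C and 1 without E. The 3 lower calls were also lost with Actb scaling, and the median of -0.06 was -0.17 without A, -0.10 without F, -0.03 without D, 0.0052 without B and 0.06 without C. Mock polysomal library A held less Atp5md, Ndufc1, Uqcr10 and Cox6a1 than libraries B and C, as in the values above.

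The last comparison asked whether the division between the pools differed between the lines, as the log2 ratio in METTL7A1 minus that in mock cells. It uses the same libraries as the comparisons above. By edgeR 0 of the 77 members and 0.0% of all 12224 genes passed, and the lowest adjusted p of a member was 0.114. An unadjusted p below 0.05 was found for 24 members, 20 with a lower and 4 with a higher ratio in METTL7A1 cells, and for 1092 and 819 of all genes. DESeq2 called 6 members lower and 2 higher among 366 genes in all. The median difference was -0.39 for the members and -0.0079 for all genes, and -0.19 for the members without mock letter C. In the fit of all libraries 56 of the 77 members (72.7%) lay below 0, beside 50.6% of all genes.

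**Figure D5:**
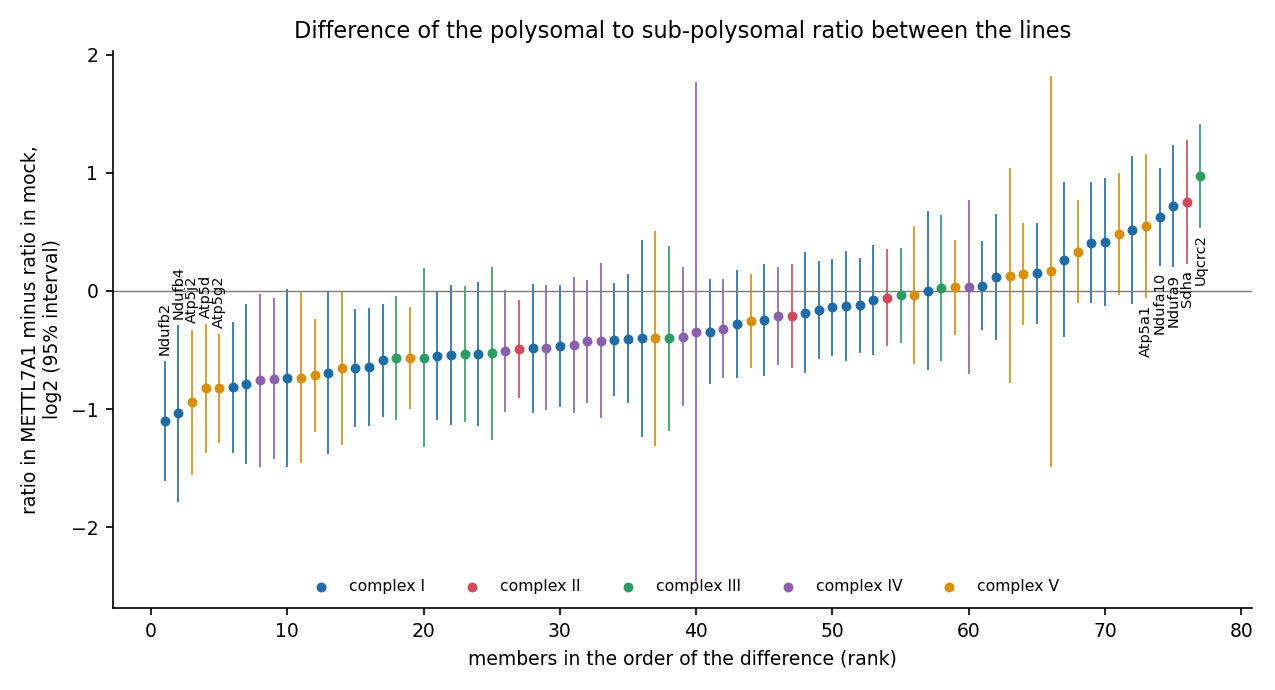
Difference of the log2 polysomal to sub-polysomal ratio, METTL7A1 minus mock (vertical axis), with its 95% interval for the 77 tested members in the order of the difference (horizontal axis), coloured by complex. The 5 lowest and 5 highest members above 5 CPM are named; differences run from -1.10 for Ndufb2 to 0.97 for Uqcrc2, and none passed the adjusted test.

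The lowest differences were those of Ndufb2 (-1.10 ± 0.24), Ndufb4 (-1.04 ± 0.36), Atp5j2 (-0.94 ± 0.29), Atp5d (-0.83 ± 0.26) and Atp5g2 (-0.82 ± 0.22). The highest were those of Uqcrc2 (0.97 ± 0.21), Sdha (0.76 ± 0.25), Ndufa9 (0.72 ± 0.25), Ndufa10 (0.63 ± 0.20) and Atp5a1 (0.55 ± 0.29). All 10 kept their sign under all 17 alternatives that give this contrast. Their adjusted p-values by edgeR lay between 0.114 and 0.374. The 95% interval of Ndufb2 ran from -1.61 to -0.60 and that of Uqcrc2 from 0.53 to 1.41. The mock libraries of Ndufb2 gave 30.5, 39.7 and 38.9 CPM in the sub-polysomal and 27.7, 31.8 and 34.0 CPM in the polysomal pool, and its METTL7A1 libraries 86.9, 73.7 and 90.6 against 27.3, 30.1 and 42.1 CPM. The polysomal levels overlapped between the lines and the sub-polysomal ones did not. Those of Atp5a1 overlapped in both pools. Uqcrc2, Sdha, Ndufa9, Ndufa10, Ndufb4, Atp5d and Atp5g2 had the arrangement of Ndufb2, with polysomal levels that overlapped and sub-polysomal levels that did not. Atp5j2 had the opposite one, with overlapping sub-polysomal and separate polysomal levels. Its sub-polysomal levels were 915, 1283 and 1193 in mock and 1244, 1295 and 1264 CPM in METTL7A1 cells. These members were picked for extreme differences, and the share of all genes with such arrangements is not given here.

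By complex the median difference was -0.31 in I, -0.13 in II, -0.47 in III, -0.42 in IV and -0.25 in V. The difference also followed protein length, with a Spearman correlation of 0.49 across the 76 members and 0.18 across other coding genes. Of the 56 members with up to 200 residues 48 lay below 0, and of the 9 over 400 residues 8 lay above it. Other genes also went with length. Below 0 lay 168 of 209 with up to 100 residues and 826 of 1193 with more than 100 and up to 200. Of the 6278 other genes over 400 residues 2754 lay below 0. The medians for members of up to 100 residues and of more than 100 and up to 200 were -0.49 and -0.40, against -0.32 and -0.20 for other genes of those classes. For members over 400 residues the median was 0.49, against 0.07. GC content moved with the difference as well, with a correlation of -0.28 across the members and -0.48 across other genes. With GC offsets the members' median difference was -0.22, with exon-length offsets -0.12 and with coding-length offsets -0.11.

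Genes that work with these complexes were read from lists. Of all genes tested, 23.7% were lower and 23.3% higher in the polysomal pool of mock cells, and 29.3% and 30.0% in METTL7A1 cells. Of 46 assembly factors, 45 were tested. In mock cells 29 were lower and 2 higher in the polysomal pool, and in METTL7A1 cells 33 lower and 5 higher. Their medians were -0.84 and -0.83. Of 16 genes of the citrate cycle and pyruvate dehydrogenase, 1 was lower and 6 were higher in mock cells and 0 lower and 9 higher in METTL7A1 cells, with medians of 0.12 and 0.62. All 16 had a difference between the lines above 0, beside 6036 of all 12224 genes. It ran from 0.05 for Suclg1 to 0.96 for Fh1, with a median of 0.43. By edgeR 0 of the 16 passed the test and 7 had an unadjusted p below 0.05, beside 1911 of all genes. The 16 had a median of 443.5 residues, and genes over 400 residues outside the members had a median difference of 0.07. Sdha, which belongs to both pathways, had a difference of 0.76. In the sub-polysomal pool 7 of the 16 fell in METTL7A1 cells, beside 14.5% of all genes. Among the 7 were Fh1 (-0.83), Pdha1 (-0.83) and Dlst (-0.58).

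Cyc1, cytochrome c1 of complex III, whose symbol the rule does not take, was at 297 ± 38.7 CPM in the mock sub-polysomal and 760 ± 95.4 CPM in the METTL7A1 sub-polysomal pool. Its log2 change of 1.35 ± 0.15 was larger than that of any member. In the polysomal pool it rose by 0.55. Ndufab1, the acyl carrier subunit of complex I, had pool ratios of -0.90 and -1.32, Cycs, cytochrome c, of -0.73 and -1.14, and Atpif1, an inhibitor of ATP synthase, of -1.30 and -1.57. Among 9 tested regulators of mitochondrial biogenesis, 0 passed the test in the polysomal pool and Cluh, an RNA-binding protein of mitochondrial protein mRNAs, rose by 0.47 in the sub-polysomal pool of METTL7A1 cells, while Ppargc1a and Ppargc1b failed the filter.

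Of the 13 mitochondrially encoded subunits, 7 were tested and all 7 were lower in the polysomal pool of both lines, with medians of -2.75 and -2.51. These mRNAs are translated inside mitochondria. mt-Nd3, mt-Nd4l, mt-Co2, mt-Co3, mt-Atp6 and mt-Atp8 were listed at 0 or 1 count in every library, although mt-Cytb reached 183935 counts, so their levels cannot be read from this table. Between the lines the 7 had a median difference of 0.15, and 0 passed the test by edgeR, with 0 at an unadjusted p below 0.05.

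Other sets of short or co-ordinately made proteins served as a comparison. The 77 tested mRNAs of mitochondrial ribosomal proteins had medians of -0.59 in mock and -1.02 in METTL7A1 cells, the 83 of cytosolic ribosomal proteins -0.94 and -1.33, and the 37 of proteasome subunits 0.36 and 0.47. In the sub-polysomal pool METTL7A1 cells had 19 higher and 3 lower mitochondrial ribosomal protein mRNAs, with a median change of 0.21. Cytosolic ribosomal protein mRNAs had 14 higher and 5 lower, with a median of 0.28, and proteasome mRNAs 5 higher and 11 lower, with a median of -0.10. The median difference of ratios between the lines was -0.26 in the mitochondrial and -0.30 in the cytosolic ribosomal protein set, with 75.3% and 80.7% below 0, and 0.11 in the proteasome set, with 37.8% below 0. The differences between these sets and the members were not tested.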

How the data were processed

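RNA-Seq counts of 12 libraries were analysed. Per the labels and the study's methods, the authors trimmed ribosome-depleted total RNA reads, aligned them with STAR 2.5.3a and assigned them to Ensembl genes of GRCm38 with featureCounts. The strand setting and the treatment of reads that match several genes are not given in the sources used here. The deposited values are whole-number counts without normalization.

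Members and lists were chosen with earlier results of these data known. Genes with at least 1 CPM in 3 libraries (12224) were fitted with 1 mean per group in edgeR 4.0.16 (R 4.3.3) with TMM factors and its quasi-likelihood test, with Benjamini-Hochberg adjustment over all of them. CPM values use TMM factors, except in the filter and in the levels of 3 counts, which use library totals. Genes were named if they passed the stricter call (adjusted p below 0.01, log2 change beyond 1.5), were among the 5 highest or 5 lowest of a contrast at a mean of at least 5 CPM, failed the filter, or had a set role (complex I core, complex II, catalytic or isoform subunits of III to V, and the carriers). Further members and list genes with values were chosen after their values were seen. Protein length, leaders and GC content were read from 1 principal transcript a gene in GENCODE M21, matched by symbol and chromosome. Alternatives were other scalings, filters, GC and length offsets (lowess span 0.3), a replicate block, only the compared groups, each letter left out, limma-voom 3.58.1 and DESeq2 1.42.0. The fit was also run on simulated counts, and the outcome is not given here. Same-lettered pools deviated from their group means with correlations between -0.29 and 0.11, so letters were not used as pairs. Limits from counts cover counting error only. Values of some genes are not reported here.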

Additional observations from a re-analysis of the deposited data

Results flagged for a closer look

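Sdha, the flavoprotein of complex II, and Ndufa9, an accessory subunit of complex I, had polysomal to sub-polysomal ratios of opposite sign in every lettered pair of pools of the 2 lines. The log2 ratios of Sdha were -0.0359, -0.054 and -0.0743 in mock letters A to C and 1.04, 0.499 and 0.473 in METTL7A1 letters D to F, and its fitted difference was 0.756 (METTL7A1 minus mock). Those of Ndufa9 were -0.572, -0.403 and -0.207 against 0.337, 0.158 and 0.528, with a fitted difference of 0.716. The mock ratios of Sdha lie close to 0, and their sign depends on the scaling and the filter, since the fitted mock ratio was 0.34 with library totals and 0.0039 with no filter beyond 1 count, the same sign as in METTL7A1 cells. The opposite signs themselves were not tested. In edgeR's quasi-likelihood test of the difference the adjusted p was 0.157 for Sdha and 0.177 for Ndufa9. Opposite signs in all letters were found for 2 of the 77 tested members (2.60%) and for 229 of all genes tested (1.87%), and the labels do not say that a letter marks pools of 1 gradient.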

How the results depend on the processing

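The comparison between pools changed with the length offsets, the scaling and the stricter call. In mock cells, members called higher were 8 with library totals, 2 with no filter beyond 1 count, 1 with GC offsets, 12 with length offsets, 14 with coding length offsets (chosen after seeing the data), 2 with the replicate block, and 1 each with limma-voom and DESeq2. Members called lower were 24 at the stricter call, 35 with length and 18 with coding length offsets, and the median was -0.64 with library totals, -0.27 with length and -0.13 with coding length offsets. In METTL7A1 cells, higher calls were 0 at the stricter call, 13 with library totals, 3 with Actb scaling and 17 with either length offset. Lower calls were 33 at the stricter call, 39 with length and 29 with coding length offsets, and the median was -0.88 with library totals, -1.59 with Actb scaling, -0.50 with length and -0.16 with coding length offsets.

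For METTL7A1 against mock, the stricter call gave 0 higher and 0 lower members in both pools. In the polysomal pool library totals gave 2 higher and 5 lower members and Actb scaling 0 lower, with medians of -0.15 and 0.0468, and limma-voom gave a median of 0.0154. In the sub-polysomal pool Actb scaling gave 34 higher and 2 lower, library totals 7 lower, length offsets 8 lower and coding length offsets 11 lower. Its median was 0.0575 with library totals, 0.48 with Actb scaling, 0.14 with GC, 0.0042 with length and 0.0356 with coding length offsets. For the difference of ratios, no filter beyond 1 count gave 1 higher and 4 lower members and DESeq2 2 and 6. Its median was -0.57 with Actb scaling, -0.21 with GC, -0.12 with length and -0.11 with coding length offsets. For values with no cause named here, the cause was not tested.

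With a letter left out, members higher and lower between pools ranged from 0 to 2 and 49 to 58 in mock cells, with medians from -1.14 to -0.95. In METTL7A1 cells they ranged from 4 to 8 and 59 to 63, with medians from -1.47 to -1.30. For METTL7A1 against mock they ranged from 1 to 4 and 0 to 19 in the polysomal pool, with medians from -0.17 to 0.0638, and from 9 to 21 and 2 to 6 in the sub-polysomal pool, with medians from 0.13 to 0.27. For the difference of ratios they ranged from 0 to 1 and 0 to 3, with medians from -0.41 without mock letter A to -0.19 without C, and the calls came without A, where 104 of all genes passed. In such fits the line left with 2 libraries per pool shares the spread of all groups. The letters did not pair the pools, and the replicate block called 58 members lower in mock cells, and in METTL7A1 cells 62 lower and 9 higher.

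Under the alternatives, 2542 values were compared for 144 chosen pairs of a gene and a contrast. Of these values 2244 kept direction and side of the threshold and 53 changed sign, all in ratios between pools. Outside these pairs, the difference of ratios changed sign for other members. Examples are Ndufb3 (0.0027, same sign in 11 of 17 alternatives) and Uqcrc1 (0.03, 12 of 17). With library totals the mock ratio was 0.31 for Ndufv1, 0.17 for Ndufv2, 0.34 for Sdha, 0.10 for Sdhb, 0.27 for Sdhc, 0.16 for Sdhd, 0.16 for Uqcrc1 and 0.0449 for Atp5g2, and the METTL7A1 ratio was 0.13 for Ndufv2, 0.18 for Sdhd and 0.26 for Uqcrc1. With length offsets the mock ratio was 0.13 for Ndufs7, 0.0534 for Ndufs8, 0.19 for Ndufv1, 0.0442 for Ndufv2, 0.37 for Sdhb, 0.35 for Sdhd, 0.0804 for Uqcrc1, 0.16 for Cox4i1 and 0.59 for Atp5g2. The METTL7A1 ratio was 0.00031 for Ndufa1, 0.33 for Sdhb, 0.45 for Sdhd, 0.22 for Uqcrc1, 0.12 for Atp5g3, 0.0256 for Cox4i1 and 0.0221 for Atp5g2. With coding length offsets the mock ratio was 0.18 for Uqcr11, 0.14 for Atp5k, 0.0587 for Uqcrq, 0.51 for Sdhc, 0.48 for Sdhd, 0.47 for Atp5g2, 0.39 for Cox7a2l and 0.12 for Atp5d. The METTL7A1 ratio was 0.0426 for Atp5e, 0.0121 for Uqcr11, 0.58 for Atp5mpl, 0.23 for Ndufa4, 0.65 for Ndufa1, 0.18 for Sdhc, 0.60 for Sdhd, 0.0073 for Atp5g3 and 0.34 for Cox7a2l. In METTL7A1 cells Uqcrc1 was at 0.25 with GC offsets. In mock cells Sdha was at 0.0039 with no filter, Sdhc at 0.0337 without mock letter B (and at -0.303, its lowest, without C), and Atp5c1 at -0.0166 with RLE factors, -0.0616 with Actb scaling, -0.0074 with at least 10 counts in every library, -0.0371 with GC offsets, -0.0183 with DESeq2 and -0.17 without mock letter A. The shallowest library, mock sub-polysomal A, limits low members most, since 3 counts in it are 1.65 CPM by its library total.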
